A study of Homo sapiens with 5 samples.

Results

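ATF3-binding sites in gene deserts were the ATF3-CPT peaks on chromosomes 1 to 22 and X whose centre lay over 100 kb from the closest protein-coding TSS and that shared no base with a peak of the ATF3-KO library. Of the 70128 ATF3-CPT peaks on these chromosomes, 68388 shared no base with an ATF3-KO peak and are called ATF3-specific here. Of these, 12652 (18.5%) met the distance rule and are called desert sites. A further 258 peaks over 100 kb from a TSS were left out because they overlapped an ATF3-KO peak. The peaks came from ChIP-seq of HCT116 cells, a human colon cancer cell line with wild-type p53. ATF3 was precipitated from wild-type cells (ATF3-WT) given 1.5 μM of camptothecin (CPT) for 4 h (ATF3-CPT), from ATF3-WT cells given DMSO, the solvent (ATF3-Ctrl), and from ATF3-knockout cells given DMSO (ATF3-KO). The p53 libraries were made from p53 wild-type cells given the same CPT treatment (p53-CPT) and from cells lacking p53 that were given DMSO (p53-KO). All cells were crosslinked with DSG and formaldehyde, each condition was 1 library, and the ATF3-KO cells were made from HCT116 by gene targeting with a recombinant adeno-associated virus. Neither knockout library came from cells that had received CPT.

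ATF3 is a stress-induced basic leucine zipper protein of the ATF/CREB family. It binds DNA as a dimer, alone or with partners such as the JUN proteins, at the ATF/CRE element and at the shorter AP-1 element. CPT traps topoisomerase I on DNA and leads to strand breaks, which activate p53, a sequence-specific transcription factor that halts the cell cycle or triggers apoptosis. Gene deserts are long stretches without protein-coding genes. Some flank genes for developmental regulators and growth factors and hold distal enhancers that act over long distances.

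The ATF3-CPT library held 15457013 tags and the 4 other libraries held from 1984941 to 12947516. Peaks took up 12.76% of the tags in ATF3-CPT, 5.60% in ATF3-Ctrl and 0.56% in ATF3-KO, in which 2231 peaks were listed. The lowest findPeaks score, which counts at most 1 tag per position, was 9 in the ATF3-CPT and ATF3-Ctrl lists, 11 in ATF3-KO and 7 in p53-CPT, and peaks below that were not listed. Some peaks had normalized tag counts worth fewer tags than their score. With 1 library per condition there was no test between conditions. Intervals are 95% intervals that cover counting error only, and a difference between CPT and DMSO cannot be told apart from a difference between the 2 libraries.

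The desert sites were far from TSS but not all outside genes. Their median distance to a TSS was 186.4 kb, and 6851 (54.1%) lay at 100 to 200 kb, 4226 at 200 to 500 kb, 1201 at 500 to 1000 kb and 374 over 1000 kb. The centre lay inside a protein-coding gene for 3888 sites (30.7%), inside a lncRNA gene alone for 3334 (26.4%), and in no annotated gene for 5284 (41.8%). The share inside a protein-coding gene was 2738 of 6851 at 100 to 200 kb, 24.3% at 200 to 500 kb and 4.55% over 1000 kb, against 55.0% of the ATF3-specific peaks at 10 to 100 kb. The words gene desert therefore stand here for distance from a TSS, and the sites include introns of long genes such as SLC39A11, PTPN14 and ADAM12.

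Sequences of sites that the results turn on are given here 5′ to 3′ as the reference sequence (GRCh37, the build of hg19) of the whole peak. The first set is from the 10 desert sites with the highest score away from unsequenced stretches and ATF3-KO peaks, and shows different words at sites of like strength. Capitals mark the AP-1 core, TGACTCA or its reverse complement TGAGTCA, and, in peaks without that core, the words TGACATCA or TTGCATCA, which are described further on. These are marked wherever they lie in the peak, at the centre or not, and other near matches to a core are not marked.
SLC39A11, chr17:70657672-70657796, plus strand: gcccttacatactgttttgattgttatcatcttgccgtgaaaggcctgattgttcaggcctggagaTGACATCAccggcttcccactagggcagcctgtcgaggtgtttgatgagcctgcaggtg
CTBP2, chr10:126952276-126952400, plus strand: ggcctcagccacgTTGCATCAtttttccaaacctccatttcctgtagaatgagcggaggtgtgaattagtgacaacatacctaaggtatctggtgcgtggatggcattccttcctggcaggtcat
FILIP1L, chr3:99721792-99721916, plus strand: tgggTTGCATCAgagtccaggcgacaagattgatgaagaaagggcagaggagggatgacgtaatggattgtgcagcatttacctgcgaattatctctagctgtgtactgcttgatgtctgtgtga
LMLN, chr3:197798915-197799039, plus strand: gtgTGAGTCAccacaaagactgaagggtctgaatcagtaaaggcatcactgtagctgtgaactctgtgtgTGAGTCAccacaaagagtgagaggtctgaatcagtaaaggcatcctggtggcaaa
The peak nearest to LMLN holds 2 AP-1 cores, and the peaks nearest to CTBP2, SLC39A11 and FILIP1L hold none.

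The second set is from the 3 desert sites farthest from any protein-coding TSS, both of those shown lying downstream of PCDH7, a protocadherin of cell adhesion, and in no annotated gene. Capitals mark the same words.
PCDH7, chr4:33412940-33413064, plus strand: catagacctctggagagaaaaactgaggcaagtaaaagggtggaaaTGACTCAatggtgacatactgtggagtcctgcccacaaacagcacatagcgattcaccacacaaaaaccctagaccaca
PCDH7, chr4:33371255-33371379, plus strand: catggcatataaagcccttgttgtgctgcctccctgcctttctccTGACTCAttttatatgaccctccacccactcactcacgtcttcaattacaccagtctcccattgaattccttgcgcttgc
These sites had scores of 11 and 13, close to the lowest score of 9, and neither had an ATF3-Ctrl peak. They lay 2691.0 and 2649.3 kb from the TSS.

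The third set is a pair of desert sites on p53-CPT peaks that were absent from p53-KO. Capitals mark a match to the p53 motif with at most 3 mismatches and, at PTPN14, also the AP-1 core. The search allowed no bases between the half-sites that make up the p53 motif. At TMEM229A, the mismatches all lie in TGGGAAGCTG, the right-hand part of the marked stretch. The lower-case gaacatgtct reads as a half-site without mismatch, and only the base g parts it from GGACATGTTC. The capitals there may therefore not mark the p53 element itself.
PTPN14, chr1:214612953-214613077, plus strand: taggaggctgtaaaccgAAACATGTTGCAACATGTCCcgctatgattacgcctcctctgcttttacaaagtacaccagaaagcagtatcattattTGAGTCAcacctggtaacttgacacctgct
TMEM229A, chr7:123886638-123886762, plus strand: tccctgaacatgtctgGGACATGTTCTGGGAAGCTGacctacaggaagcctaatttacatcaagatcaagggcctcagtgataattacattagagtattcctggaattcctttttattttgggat

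ATF3-specific peaks became sparser with distance from a TSS, and the sites in deserts were as strong as those nearer to genes. Over all bases of the chromosomes that were over 100 kb from a TSS and not N in the reference (1171.0 Mb, 41.3% of such bases), there were 10.80 desert sites per Mb (10.62 to 10.99). Within 100 kb of a TSS there were 33.5 peaks per Mb (33.2 to 33.8). The density was 25.9 per Mb at 10 to 100 kb, 16.6 at 100 to 200 kb, 9.43 at 200 to 500 kb, 5.53 at 500 to 1000 kb and 3.99 (3.59 to 4.41) over 1000 kb, so each step outwards was lower than the one before it and their intervals did not overlap.

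**Figure D1:**
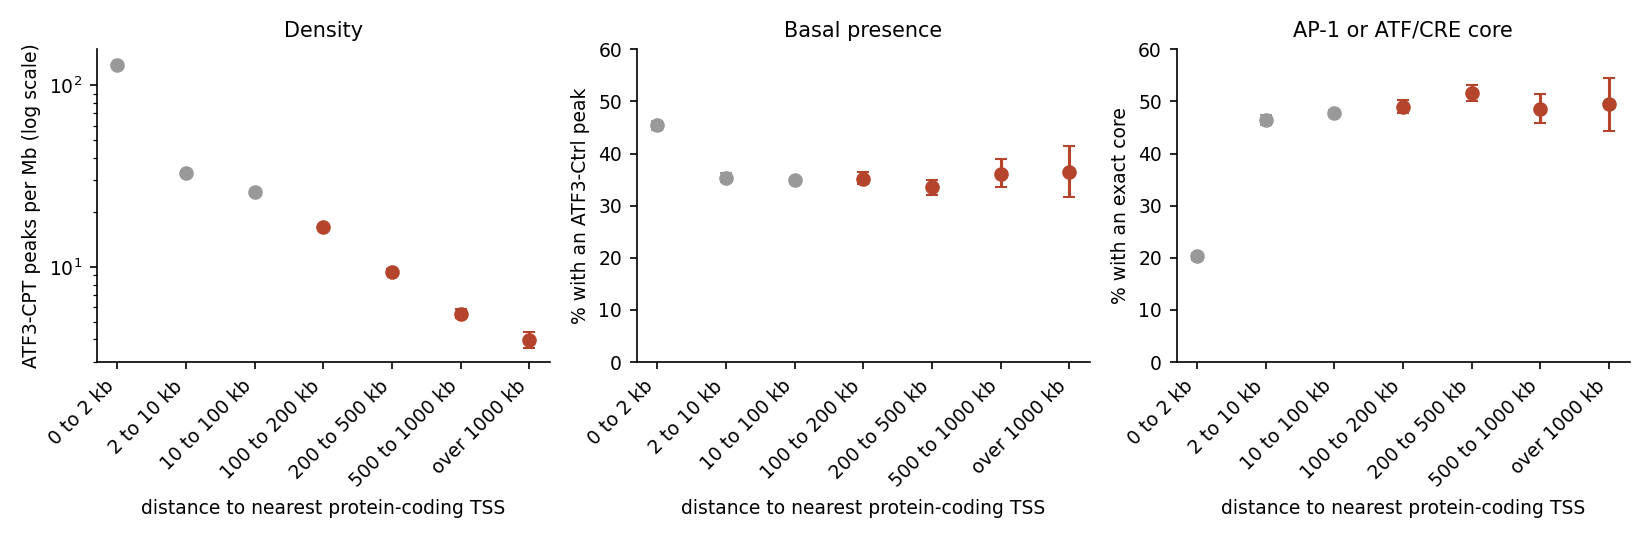
ATF3-specific peaks of the ATF3-CPT library in 7 classes of distance to the nearest protein-coding TSS, with desert sites in red and nearer peaks in grey: peaks per Mb on a log scale, the percentage with an ATF3-Ctrl peak, and the percentage with an exact AP-1 or ATF/CRE core. Points are values of 1 library and bars are 95% counting intervals. Density goes from 130 per Mb within 2 kb to 3.99 per Mb over 1000 kb, while the share with an ATF3-Ctrl peak stays between 33.6% and 36.4% in the 4 desert classes.

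The findPeaks score, the number of tags of a peak with at most 1 tag per position, had a median of 16 and quartiles of 11 and 29 over the desert sites. The same quartiles were 11 and 30, with a median of 16, for the peaks at 10 to 100 kb. The normalized tag count, scaled to a library of 10000000 tags, had a median of 10.4 and quartiles of 7.1 and 19.4 in deserts, and a median of 10.4 at 10 to 100 kb. The median score was 17 at 100 to 200 kb, 16 at 200 to 500 kb and 15 in both classes farther out. Strength thus differed by at most 2 tags at the median between the distance classes within the deserts, while density went from 16.6 to 3.99 per Mb.

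Desert sites were unevenly spread over the chromosomes. The density over the 22 autosomes had a median of 11.62 sites per Mb of desert. It was highest on chromosome 17, with 380 sites in 15.4 Mb, or 24.65 per Mb (22.23 to 27.26), followed by chromosome 12 with 15.33 (14.23 to 16.50). It was lowest on chromosome X, with 247 sites in 65.4 Mb, or 3.78 per Mb (3.32 to 4.28), and among autosomes on chromosome 21 with 5.04 (3.99 to 6.28) and chromosome 19 with 5.90 (3.95 to 8.47). Chromosome 19 is rich in genes and had only 4.9 Mb of desert with 29 sites. On each of the 23 chromosomes the density in deserts was below that within 100 kb of a TSS. The latter was 54.67 per Mb on chromosome 17 and 11.40 on chromosome X. Chromosome 19 went the other way, with 49.87 per Mb within 100 kb of a TSS, the second highest, and the third lowest density in deserts. Over the 22 autosomes of this 1 library, the densities in deserts and within 100 kb of a TSS had a Pearson's r of 0.53. No input library was in the authors' peak-calling command, so differences in DNA copies between regions remain in the tag counts, and their part in the density was not tested.

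**Figure D2:**
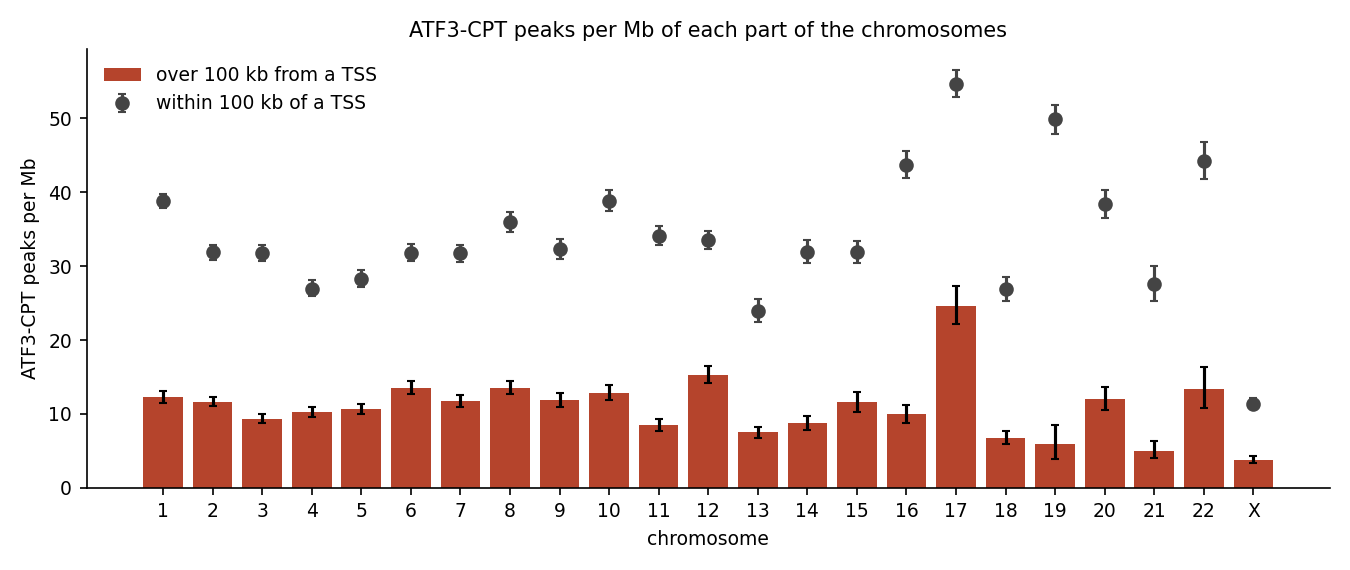
Desert sites per Mb of desert on each chromosome (bars) and ATF3-specific peaks per Mb within 100 kb of a TSS (points), both from the ATF3-CPT library, with 95% Poisson intervals. Chromosome 17 is highest on both measures at 24.65 and 54.67 per Mb and chromosome X is lowest on both at 3.78 and 11.40.

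The sites were also grouped within chromosomes. Neighbouring desert sites lay 26.0 kb apart at the median. When neighbours were joined at the gap customary for grouping enhancers into super-enhancers, which 4731 of the 12629 neighbouring pairs (37.5%) met, the sites formed 271 chains of 5 or more sites with 1858 members (14.7%), while 5470 sites (43.2%) had no neighbour that close. Sites in chains of 5 or more had a median score of 22 and an ATF3-Ctrl peak in 47.8% (45.5% to 50.1%), against a median score of 14 and 27.8% (26.6% to 29.0%) for single sites. An exact core was in 43.6% of the sites in such chains and in 51.7% of the single sites. Windows of 1 Mb with 20 or more desert sites numbered 95 of the 1918 windows with any site and held 20.6% of the sites, with a median of 4 sites per window.

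The window with the most desert sites was chr17:70000001-71000000, with 76 sites. Of these, 40 were nearest to SOX9, a transcription factor of intestinal crypt cells and of cartilage, and 36 to SLC39A11, a zinc transporter. An ATF3-Ctrl peak was at 41 of the 76 sites (53.9%) and an exact core at 40. Next came chr8:126000001-127000000 with 58 sites, 51 of them nearest to TRIB1, a pseudokinase, with the highest median score of the 5 windows (38). In chr12:76000001-77000000 there were 52 sites, 34 nearest to KRR1, a ribosome assembly factor, and 14 nearest to PHLDA1. In chr2:227000001-228000000 there were 48 sites, 47 of them nearest to IRS1, the adaptor of the insulin receptor. In chr8:29000001-30000000 there were 45 sites, 26 nearest to DUSP4, a phosphatase of MAP kinases, and 19 nearest to SARAF. The parts of these windows that lay over 100 kb from a TSS were 78.9%, 56.0%, 39.5%, 60.5% and 55.3%, and the sites per Mb of that part were 96.3, 103.5, 131.7, 79.3 and 81.4, highest in the KRR1 window.

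The 5 longest chains held 18 to 27 sites in 45.6 to 108.0 kb. The longest, chr12:76078750-76186798, had 27 sites of modest strength (scores 9 to 40) in 3 lncRNA genes near KRR1, and 8 had an ATF3-Ctrl peak. A chain of 21 sites at chr7:130559167-130631243 lay in the lncRNA gene LINC-PINT and neighbouring lncRNA genes, 140.3 to 183.8 kb from KLF14, with scores up to 88 and a core in 4 of the sites. A chain of 20 sites at chr4:30822973-30885519 lay within PCDH7 itself, with scores up to 92 and a core in 5. A chain of 18 sites at chr18:3579790-3625417 lay in DLGAP1, a synaptic scaffold gene, and its antisense genes, with TGIF1, a homeodomain repressor, as the nearest TSS. None of the 5 chains had a site on a p53-CPT peak absent from p53-KO. Such an overlap was at 0.735% of all desert sites, so its absence from the few sites of these chains says little.

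The chain at chr17:70354808-70419247 lay in the lncRNA gene LINC00511, 237.7 to 302.0 kb from SOX9, and had the highest median score of the 5 (37.5). Its 18 sites had scores from 16 to 117, 12 had an ATF3-Ctrl peak and 13 an exact core. The strongest, chr17:70417470-70417594, had a normalized tag count of 100.3 after CPT and 28.6 before, and held 2 AP-1 cores. The site chr17:70382460-70382584 had nearly equal counts of 104.8 after and 97.3 before. The site chr17:70378332-70378456 had a lower count after CPT, 12.3 against 19.3 before, but both rest on few tags and no interval is given for their ratio. The remaining 9 sites with a peak in both libraries had ratios from 1.49 to 4.70, so sites a few kb apart in one gene differed in their ratio. A single weak p53-CPT peak with a score of 10, absent from p53-KO, lay in the chain at chr17:70412525-70412843 and overlapped none of its ATF3 sites.

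By nearest TSS, desert sites belonged to 2795 of 20149 protein-coding genes (13.9%), with a median of 3 sites per such gene, and 65 genes had 20 or more. The gene with the most was PCDH7, with 81 sites up to 2691.0 kb away and scores from 9 to 92. SOX9 had 67 sites with a median score of 26, and 36 of them (53.7%) had an ATF3-Ctrl peak. Its strongest, chr17:70461782-70461906, lay 344.7 kb downstream in an exon of LINC00511, and scored 144. Its normalized tag count was 139.7 (121.7 to 159.7) after CPT, and the ratio to the count before was 2.74 (2.07 to 3.67).

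MYC, the growth-promoting transcription factor, had 56 sites up to 928.5 kb away, 54 of them downstream, of which 26 (46.4%) had an ATF3-Ctrl peak. The strongest, chr8:129189239-129189363, lay 439.3 kb away with a score of 154. IRS1 had 52 sites with a highest score of 91. TRIB1 had 51 sites with a median score of 35, and 29 (56.9%) had an ATF3-Ctrl peak. HS3ST1, a heparan sulfate sulfotransferase, had 46. The nuclear receptor genes NR2F1 and NR5A2 had 38 each, with highest scores of 144 and 76. CITED2, a transcriptional co-regulator, and SLC39A11 had 36 each. RP11-685N3.1 had 49 sites 121.2 to 1768.4 kb away, 19 of them within 10 kb of a p53-CPT peak. The share that close was 9.21% of all desert sites and 38.1% of those near large unsequenced stretches, which are described below. How many of the 49 sites lay near such a stretch is not given here. None of these 11 genes had a desert site that overlapped a p53-CPT peak absent from p53-KO. Such an overlap was rare, at 93 of all desert sites (0.735%).

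**Figure D3:**
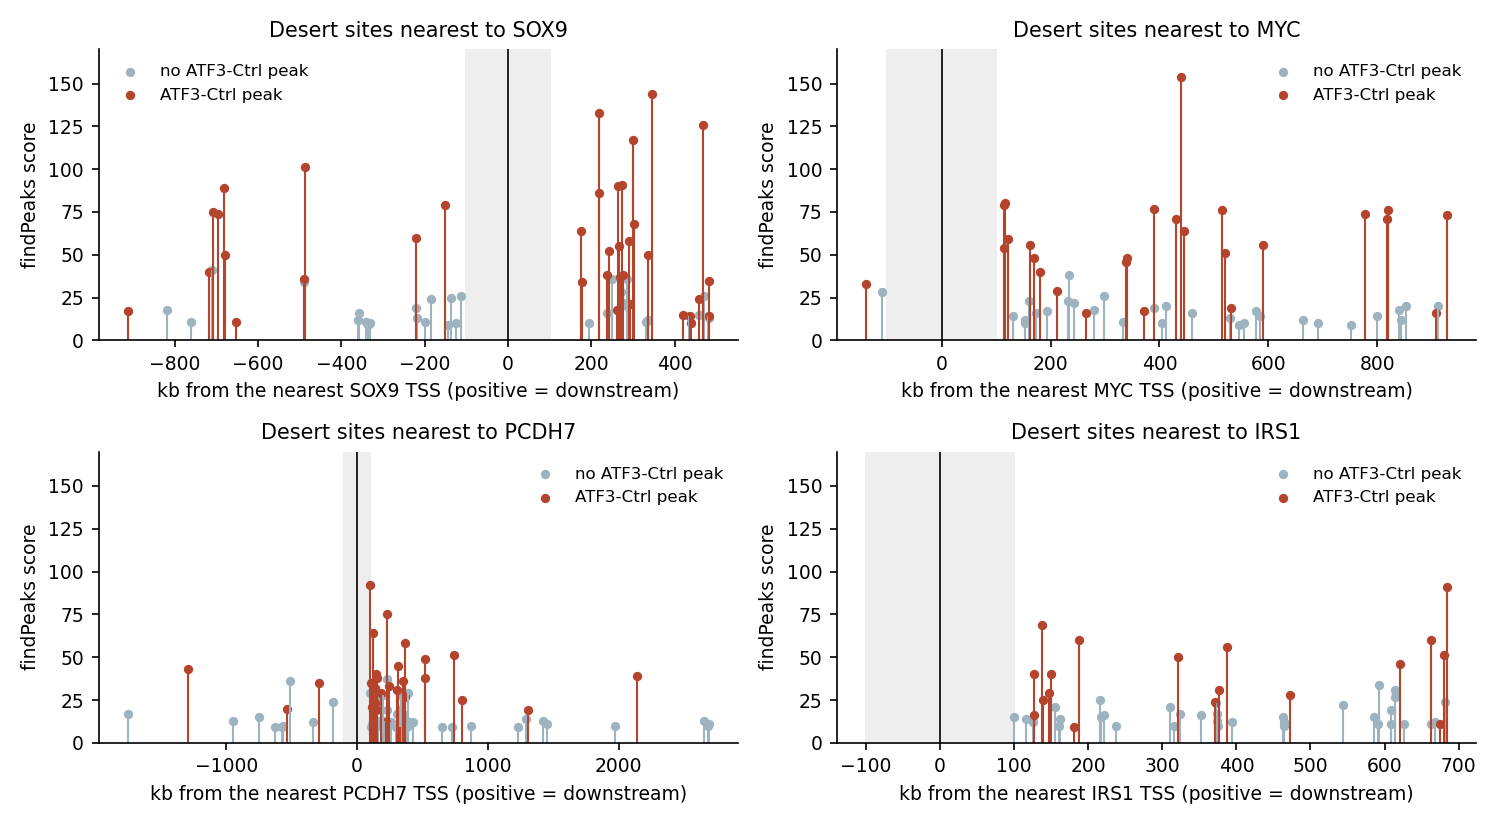
Desert sites nearest to SOX9, MYC, PCDH7 and IRS1, drawn at their distance in kb from that gene's closest TSS with the findPeaks score in ATF3-CPT as height. Red sites had an ATF3-Ctrl peak and blue sites had none, and the grey band marks the region up to 100 kb from the TSS, which the rule leaves out. SOX9 has 39 sites downstream and 28 upstream, MYC has 54 of 56 downstream, all 52 of IRS1 are downstream, and 55 of the 81 sites of PCDH7 lie within 500 kb.

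A set of 3 gene lists was examined, each drawn up from genes known to lie beside deserts or to have distal enhancers. Over all 20149 protein-coding genes, 13.9% had a desert site and the median was 0 per gene. Genes picked for lying beside deserts are by position the nearest to more desert bases, which was not adjusted for. The shares of the lists therefore cannot be read as an excess over 13.9%. Of 25 transcription factor genes that flank deserts, 18 had a desert site, with a median of 2 per gene. SOX9, NR2F1, TBX3 (20 sites), SOX4 (18) and ZEB2 (16) led, and among those without a site were SOX11, MEIS2, IRX1, IRX2, TSHZ1 and TSHZ3. Of 15 genes of colon epithelium, 10 had a desert site, with a median of 5. Beside MYC and SOX9, TGFBR2, a TGF-β receptor, had 23 sites, KLF5, a transcription factor of crypt cells, had 21, and the growth factor genes BMP4 and BMP2 had 15 and 11. HNF4A, CDX2, ASCL2, EREG and AREG had none. Of 22 adhesion genes of gene-poor regions, 10 had a desert site, with a median of 0. PCDH7 accounted for 81 of their 141 sites, and CDH2, the N-cadherin gene, for 15. An ATF3-Ctrl peak was at 39.8% (33.5% to 46.5%), 44.3% (37.8% to 51.1%) and 31.2% (24.1% to 39.3%) of the sites of these 3 lists, against 34.8% of all desert sites. SOX9 is in both of the first lists.

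The 10 strongest desert sites reached scores of 166 to 249. Of these, chr1:121484755-121484879 (score 249), chr7:61968986-61969110 (202) and chr10:42385557-42385681 (170), lay within 1 Mb of a run of N of at least 1 Mb, such as a centromere, and within 1 kb of an ATF3-KO peak. They had higher normalized tag counts before CPT than after it, with 1270.5, 720.6 and 479.6 in ATF3-Ctrl against 755.0, 313.8 and 256.8 in ATF3-CPT. The strongest of the others, chr7:129471407-129471531, lay in an exon of UBE2H, a ubiquitin-conjugating enzyme gene, 106.1 kb downstream of its nearest TSS. It had a normalized tag count of 304.1 (277.2 to 332.8) after CPT and 247.2 (220.8 to 275.8) before, a ratio of 1.23 (1.07 to 1.42).

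The other 6 had ratios from 1.46 to 3.44 and no ATF3-KO peak within 1 kb. The site chr10:126952276-126952400, upstream of the corepressor gene CTBP2 and in no gene, had 227.7 after and 156.0 before. The site in an intron of SLC39A11, chr17:70657672-70657796, had 249.1 after and 114.3 before. The site chr8:126286232-126286356 in an intron of NSMCE2, a SUMO ligase gene of DNA repair, had 224.5 after and 107.4 before. The peak of 2 cores nearest to LMLN, chr3:197798915-197799039, had 196.7 after and 57.2 before, the largest ratio of the 10 at 3.44 (2.66 to 4.50). The site upstream of RTL1, an imprinted retrotransposon-derived gene, chr14:101539656-101539780, had 174.7 after and 63.3 before.

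Sites near large unsequenced stretches differed from the rest. Of the desert sites, 273 (2.16%) lay within 1 Mb of a run of N of at least 1 Mb, against 0.543% of the peaks at 10 to 100 kb. An exact core was in 19.4% of these 273 sites (15.2% to 24.5%), 17.9% lay within 1 kb of an ATF3-KO peak, 38.1% lay within 10 kb of a p53-CPT peak, and the median ratio of counts after and before CPT was 0.58. In the 12339 desert sites away from such stretches and over 1 kb from an ATF3-KO peak, the core share was 50.6%, the p53 share 8.52% and the median ratio 1.98. The share of sites near such stretches was 0.803% at 100 to 200 kb and 18.4% over 1000 kb from a TSS, so it moved with distance.

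An ATF3-Ctrl peak was listed at a minority of the desert sites, at a share close to that of peaks 10 to 100 kb from a TSS. An ATF3-Ctrl peak shared at least 1 bp with 4402 desert sites (34.8%, 34.0% to 35.6%). The share was 37.0% over the ATF3-specific peaks in all, 34.9% (34.4% to 35.4%) at 10 to 100 kb and 45.4% (44.5% to 46.2%) within 2 kb of a TSS. It lay between 33.6% and 36.4% in the 4 distance classes of the deserts. By chromosome, among those with over 100 sites, it went from 26.3% on chromosome X (21.2% to 32.1%) and 26.7% on chromosome 11 to 39.9% on chromosome 14 (34.8% to 45.3%).

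Basal presence followed the strength of the site after CPT. It was 7.19% (5.98% to 8.62%) at the lowest score of 9, 20.8% at scores of 15 to 19, 52.6% at 25 to 32 and 96.9% (95.8% to 97.7%) at 51 or more. The peaks at 10 to 100 kb went from 6.59% to 96.1% over the same scores. Sites without an ATF3-Ctrl peak had a median score of 13 and those with one had 34. In ATF3-Ctrl, 9 tags, the lowest score listed, are worth a normalized tag count of 6.95, although the lowest count at a shared site was 5.4. Among the 4614 desert sites with at least 2 times the count of 6.95 after CPT, 3259 (70.6%, 69.3% to 71.9%) had an ATF3-Ctrl peak. The share was close to this, 69.6% (68.8% to 70.4%), for the 12356 such peaks at 10 to 100 kb. Below a count of 6.95 it was 7.97% in deserts and 7.43% at 10 to 100 kb. Of the 8250 desert sites without an ATF3-Ctrl peak, 2529 had a count below 6.95 after CPT, 4366 had between 1 and 2 times that and 1355 had at least 2 times that. For the weaker of these sites, similar binding before CPT may have stayed below the lowest score listed.

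**Figure D4:**
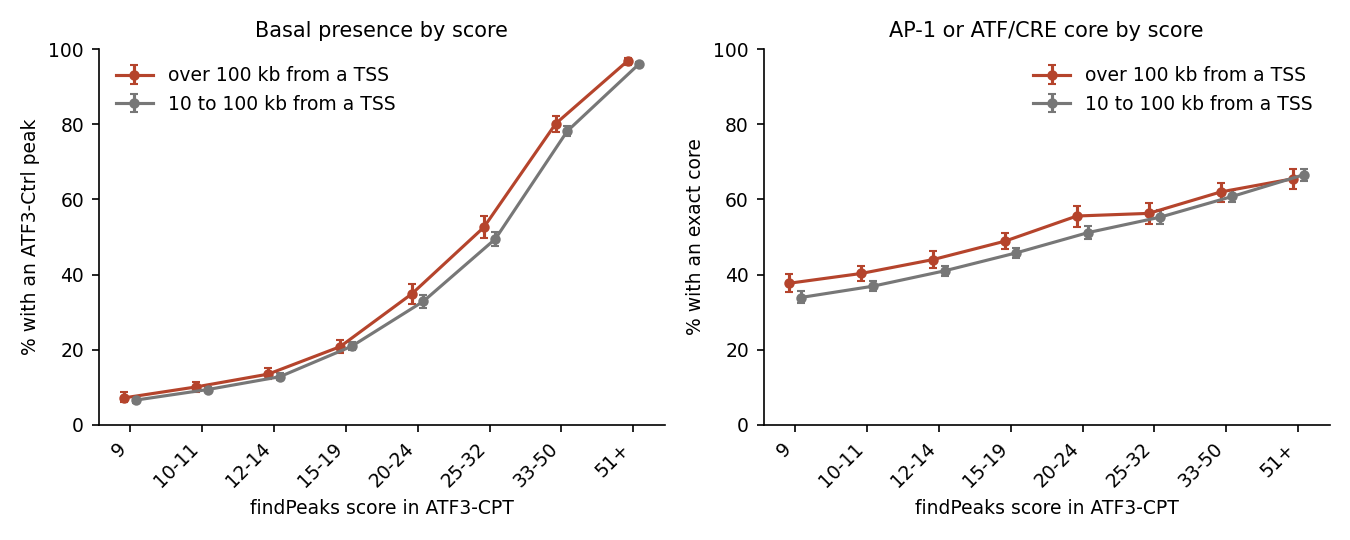
Percentage of sites with an ATF3-Ctrl peak (left) and with an exact AP-1 or ATF/CRE core (right) by the findPeaks score in ATF3-CPT, for desert sites (red) and for ATF3-specific peaks 10 to 100 kb from a TSS (grey), with 95% Wilson intervals. Basal presence climbs from 7.19% to 96.9% and the core from 37.7% to 65.5% in the deserts, and the grey points lie close by.

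Strong sites without a basal peak were few. Of 1289 desert sites with a score of at least 51, 40 had no ATF3-Ctrl peak. The highest of these, chr10:42598042-42598166 (score 139), lay near a large unsequenced stretch and within 1 kb of an ATF3-KO peak, and chr16:46386856-46386980 (82) also lay near such a stretch. The other 3 of the top 5 lay in introns of long genes. The site chr10:127887892-127888016 in ADAM12, a metalloprotease gene, had a score of 96, a normalized tag count of 75.7 (62.6 to 90.7) and 2 AP-1 cores. The site chr18:3652989-3653113 in DLGAP1, which is also an exon of the lncRNA gene ENSG00000266401, had a score of 84, a count of 73.8 and 2 cores. The site chr16:11178341-11178465 in CLEC16A, an autophagy gene, had a score of 71, a count of 54.3 and no core.

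Where both libraries had a peak, binding was mostly higher after CPT. Over the 4402 shared desert sites, the median normalized tag count was 11.6 before and 23.9 after. The median ratio was 1.94 with quartiles of 1.20 and 2.74. Over all 25271 shared ATF3-specific peaks the ratio was much the same, with a median of 1.87 and quartiles of 1.18 and 2.69. Of the shared desert sites, 3612 (82.1%) had a ratio over 1, a share that was not counted over all peaks. The count was at least 2-fold higher after CPT at 2098 sites (47.7%), against 46.1% of all shared ATF3-specific peaks, and at least 2-fold lower at 132 (3.0%), against 1.75%. Without the sites near large unsequenced stretches or ATF3-KO peaks, these shares in the deserts were 49.3% and 1.89%. The counts before and after were correlated across the shared sites (Pearson's r = 0.66 on log2 counts, Spearman's rho = 0.62, n = 4402 sites of the same 2 libraries). The ratio depended on the score, with medians of 0.68 at a score of 9 and 2.64 at 51 or more, and a weak ATF3-CPT peak counted as shared only when an ATF3-Ctrl peak with a score of at least 9 was listed there too.

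The median ratio was lower farther out: 2.06 at 10 to 100 kb, 2.01 at 100 to 200 kb, 1.93 at 200 to 500 kb, 1.66 at 500 to 1000 kb and 1.62 over 1000 kb. Within 2 kb of a TSS it was 1.45, the lowest of the 7 classes. The share of shared sites at least 2-fold lower after CPT was 1.91%, 2.75%, 6.68% and 13.2% in the 4 desert classes, which is the order of the share of sites near large unsequenced stretches (0.803%, 1.70%, 6.41% and 18.4%). Over 500 kb and away from such stretches and ATF3-KO peaks, 479 shared sites had a median ratio of 1.81. Of these 479 sites, 2.71% were at least 2-fold lower. Under the same filter, the median ratio over all desert sites was 1.98 and 1.89% were at least 2-fold lower. The 2.01 at 100 to 200 kb was without this filter, so it is not a like comparison. The part of these stretches in the lower ratio was not tested further.

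**Figure D5:**
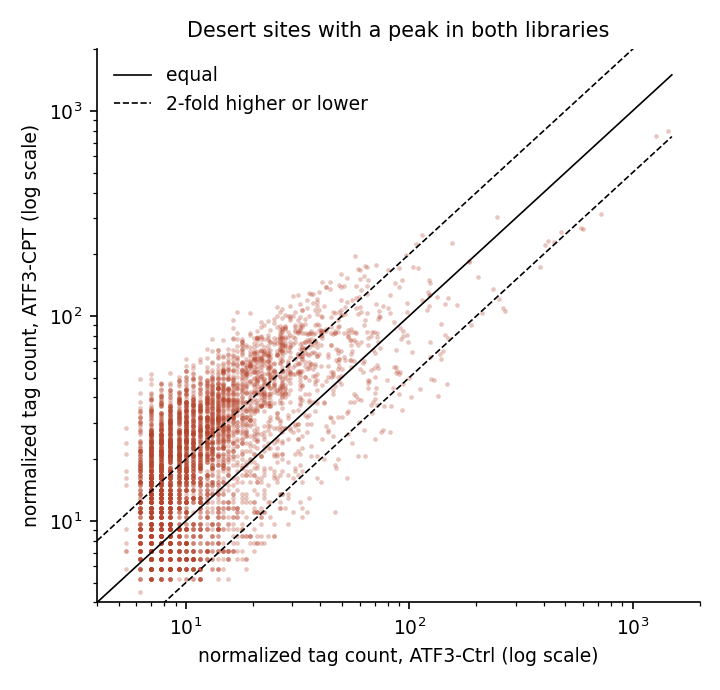
Normalized tag counts of the 4402 desert sites with a peak in both libraries, in ATF3-Ctrl (x) and ATF3-CPT (y), both on log scales, 1 point per site and 1 library per axis. The solid line marks equal counts and the dashed lines 2-fold. Of the sites, 82.1% lie above the solid line and 47.7% on or above the upper dashed line, while the 3 highest counts before CPT lie below the solid line.

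The largest ratios among shared sites with at least 20 tags in one library ranged from 6.66 to 7.94, and each of the 5 had 1 AP-1 core. The site chr3:5372261-5372385, 142.3 kb from EDEM1, a gene of protein quality control in the endoplasmic reticulum, had 49.2 after and 6.2 before, a ratio of 7.94 (3.84 to 19.10). The site chr3:197941296-197941420 nearest to LMLN had a ratio of 7.40 and chr17:69897133-69897257, 220.0 kb upstream of SOX9, one of 7.03 (3.54 to 16.06). The site chr6:143123383-143123507 in HIVEP2, a zinc finger gene, and chr10:2992227-2992351 upstream of PFKP, a phosphofructokinase gene, had ratios of 6.79 and 6.66. In each, the ATF3-Ctrl peak had the lowest score of 9, so the ratio rests on few tags before CPT, as the intervals show.

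The 5 smallest ratios were 0.24 to 0.31, and none of these sites had an exact core. Those at chr8:43838638-43838762 (0.24, 0.13 to 0.41), chr18:18516094-18516218 (0.30) and chr17:22262627-22262751 (0.31) lay near large unsequenced stretches. The other sites were chr4:117717339-117717463, in lncRNA genes near TRAM1L1, with 10.4 after and 33.2 before, and chr14:68564545-68564669 in RAD51B, a gene of homologous recombination, with 5.8 after and 18.5 before (ratio 0.31, 0.13 to 0.70).

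p53 peaks were seldom close to desert sites, and somewhat less often within 100 kb than for peaks nearer to genes. A p53-CPT peak centre lay within 10 kb of 1165 desert sites (9.21%, 8.72% to 9.72%), against 9.77% of all ATF3-specific peaks and 9.62% at 10 to 100 kb. It lay within 1 kb of 264 (2.09%) and within 100 kb of 6166 (48.7%, 47.9% to 49.6%), against 54.5% (54.1% to 55.0%) of the peaks within 100 kb of a TSS. The median distance to a p53-CPT peak was 103.6 kb in deserts and 87.1 kb for those nearer peaks. A p53-CPT peak shared at least 1 bp with 131 desert sites (1.04%), against 1.07% of all ATF3-specific peaks. Many p53-CPT peaks were also present in p53-KO: of 9013 p53-CPT peaks on these chromosomes, 3532 shared no base with a p53-KO peak. With the latter alone, the share within 10 kb was 4.73% (4.38% to 5.12%) in deserts, 5.23% (4.99% to 5.47%) at 10 to 100 kb and 5.54% (5.38% to 5.72%) of all ATF3-specific peaks, and 93 desert sites overlapped one. The p53-KO library came from cells without CPT and held 1984941 tags, fewer than the 3169743 of p53-CPT.

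Seen from the p53 side, 1058 p53-CPT peaks absent from p53-KO lay over 100 kb from a TSS, and 93 of them (8.79%, 7.23% to 10.6%) overlapped a desert site. Within 100 kb of a TSS, 488 of 2474 such p53 peaks (19.7%, 18.2% to 21.3%) overlapped an ATF3-specific peak. The 2 intervals did not overlap, and ATF3-specific peaks were also 33.5 per Mb there against 10.8 per Mb in the deserts.

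The 93 sites were somewhat stronger than desert sites in general, with a median score of 24 against 16, and 43 (46.2%, 36.5% to 56.3%) had an ATF3-Ctrl peak. A match to the p53 motif was in 28 of them (30.1%, 21.7% to 40.1%), against 2.76% of all desert sites, and an AP-1 core was in 42. Both were in the same peak at 13 sites. Motifs were searched in the ATF3 peak alone, so a p53 motif elsewhere in the p53 peak was not counted. The 43 of the 93 sites with a peak before CPT had a median ratio of 2.19, and none was at least 2-fold lower after CPT.

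The highest p53 scores among the desert sites on p53-CPT peaks were 316 and 264. These were at chr7:61968986-61969110, near an unsequenced stretch, and chr2:1218352-1218476, in low-complexity sequence within SNTG2, and both p53 peaks were also in p53-KO. The p53-CPT peaks at chr2:199142286-199142410 in PLCL1 (score 127) and chr5:109956372-109956496 in TMEM232 (83) were in p53-KO as well. Among those absent from p53-KO, the highest was at chr8:29628040-29628164 in the lncRNA gene LINC02099, 312.5 kb from SARAF. It had a p53 score of 169, a p53 motif, an AP-1 core, and ATF3 counts of 47.2 (37.0 to 59.4) after CPT and 27.0 (18.8 to 37.6) before.

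At chr1:214612953-214613077, in an intron of PTPN14, a phosphatase gene that p53 is known to activate, the p53 score was 122. ATF3 had 43.3 after CPT and 14.7 before there, a ratio of 2.95 (1.75 to 5.21), and both motifs shown in its sequence above. At chr10:106569311-106569435, in an intron of SORCS3, ATF3 was strong (score 107, with 89.9 after and 33.2 before) and the p53 score was 85. No p53 motif was found in this ATF3 peak. The p53 peak, chr10:106569007-106569325, overlapped only its edge, and the rest of the p53 peak was not searched. At chr4:77703211-77703335, in an exon of SHROOM3, a gene of epithelial cell shape, the p53 score was 98, and ATF3 had 23.9 after and 8.5 before. The site chr7:123886638-123886762, 213.6 kb upstream of TMEM229A, had a p53 score of 72, a p53 motif, an ATF3 count of 22.6 and no ATF3-Ctrl peak. In contrast, at chr17:67603330-67603454 and chr7:40756924-40757048, with p53 scores of 153 and 110, ATF3 had scores of 9 and 15 and no ATF3-Ctrl peak. The remaining 3 of the 10 highest, nearest to RAP2B, GARIN2 and TCERG1L, had p53 scores of 82, 72 and 55 and ATF3 scores of 12, 23 and 32. The nearest p53-CPT peak that did not overlap its desert site had its centre 230 bp from chr14:24299425-24299549, upstream of DHRS4, which had 2 AP-1 cores and ATF3 counts of 36.2 after and 11.6 before.

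An AP-1 or ATF/CRE core was slightly more common in deserts than at sites nearer to genes. The AP-1 core was in 6225 desert sites (49.2%) and the ATF/CRE core, TGACGTCA, in 93 (0.735%). Either was in 6306 (49.8%, 49.0% to 50.7%), against 42.7% of all ATF3-specific peaks, 47.7% (47.2% to 48.3%) at 10 to 100 kb, 46.4% (45.4% to 47.4%) at 2 to 10 kb and 20.3% within 2 kb of a TSS. Sequence of the same width 1000 bp to the side of the desert sites held a core in 2.34%. The share in deserts was 37.7% at a score of 9 and 65.5% at 51 or more, against 33.9% and 66.6% at 10 to 100 kb. The AP-1 core lay 15 bp from the peak centre at the median and within 20 bp in 62.8% of the sites with one, and 699 sites (5.52%) had 2 or more, against 4.11% at 10 to 100 kb. Within 2 kb of a TSS the AP-1 core was in 17.0% of the peaks and the ATF/CRE core in 3.35%.

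The bases beside the AP-1 core differed in part between deserts and sites nearer to genes. The most frequent core with 1 base on either side was ATGACTCAT, on either strand, in 1025 of the 6225 sites with a core (16.5%), against 13.9% at 10 to 100 kb. ATGAGTCAC followed with 13.5% and 14.6%, and GTGACTCAC differed the most of the 6 most frequent, with 557 of 6225 sites in deserts (8.95%) and 1828 of 15281 at 10 to 100 kb. The desert peaks had a median GC content of 45.6%, against 48.0% at 10 to 100 kb.

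Among strong desert sites without either core (score of at least 33, away from large unsequenced stretches and ATF3-KO peaks), 898 were searched for frequent words of 8 bases in the 61 bp around the centre. These words were chosen after their counts were seen. ATGAATCA was in 77 (8.57%, against 0.223% in sequence 1000 bp to the side), TGACATCA in 73 (8.13%, against 0.334%) and ATGACTAA in 71 (7.91%, against 0.223%). TGATGCAA, whose reverse complement is TTGCATCA, was in 62 (6.90%) and in none of the side sequences. The same 4 words were in 5.59%, 7.97%, 7.70% and 5.48% of 2610 such sites at 10 to 100 kb. The SLC39A11 peak above holds TGACATCA within the 61 bp around its centre. The CTBP2 and FILIP1L peaks hold TTGCATCA outside those 61 bp, so they are not examples of the counted words. At its centre the FILIP1L peak holds TGACGTAA, which has 1 mismatch to the ATF/CRE core and is not in capitals. With 1 mismatch allowed, an AP-1 or ATF/CRE core was in 85.1% of the desert sites.

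The desert sites nearest to the limit of 100 kb were chrX:105545686-105545810, near PWWP3B, with a score of 48, and chr3:178689515-178689639, in ZMAT3, with a score of 25. The peaks just nearer than the limit were chr10:4768338-4768462, near AKR1E2, with a score of 68, and chr10:121186934-121187058, in low-complexity sequence within GRK5, with a score of 10.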

How the data were processed

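ChIP-seq peak lists of 5 libraries were used, with 1 library per condition. Per the submitters' processing notes, reads were aligned with BWA 0.6.1 to hg19 and peaks were called with HOMER 4.1. The file headers show findPeaks run on each library alone, without input, with thresholds of 0.001 for the false discovery rate, 4-fold against the surrounding 10 kb and 1e-04 for the local p. The deposited lists give for each peak a normalized tag count, a signal that the authors scaled to 10000000 tags of the library, a findPeaks score counted by the authors with at most 1 tag per position, and a fold enrichment ratio over the local region deposited beside it. Tags of single peaks were recovered as the normalized tag count times the library total over 10000000.

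TSS were those of transcripts tagged basic of protein-coding genes in GENCODE release 44 on GRCh37. Peaks overlapped when they shared at least 1 bp, and distances were between centres. A basal peak was an ATF3-Ctrl peak that overlapped the site, and its ratio used the highest overlapping one. Cores were exact matches on either strand in the peak. The p53 motif was searched in the ATF3 peak as 2 adjoining half-sites with no bases between them, and was allowed 3 mismatches. The p53 peaks themselves were not searched. Low-complexity sequence was a 300 bp window in which distinct words of 6 bases made up less than 0.5 of all words. Shares have 95% Wilson intervals, counts and densities exact Poisson intervals, and ratios of single sites conditional exact binomial intervals. A 2-fold ratio was the size rule, as no test between conditions could be made.

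Named sites were the 10 highest scores, the 5 highest without a basal peak, the 5 largest and 5 smallest ratios with at least 20 tags in one library, the 10 highest p53 scores among overlaps and the nearest p53 peak without overlap, the 3 farthest from a TSS, 2 on each side of the 100 kb limit, the 5 fullest windows of 1 Mb and chains, the 10 genes nearest to the most sites (11 with a tie) and 3 gene lists. The 10 highest scores away from unsequenced stretches, the 10 highest p53 scores absent from p53-KO, the strongest site nearest to SOX9 and the sites of its chain were named after their values were seen. The score bands, the score limits of 33 and 51, the multiples of the ATF3-Ctrl threshold and the definition of a large unsequenced stretch were also set after values had been seen. One gene of a list and 3 of the named sites are not reported here. The members and lists were chosen with earlier results of these data known. Scripts used Python 3.11.15, pandas 2.3.3 and scipy 1.17.1 and were tested on simulated data. The alternatives concerned the distance, the TSS set, ATF3-KO removal, score, low-complexity peaks, chromosome X, and the definitions of each measure.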

Additional observations from a re-analysis of the deposited data

How the results depend on the processing

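Of 91 comparisons with an alternative setting over 8 results, 48 kept the value within its counting interval (for the number of sites, within 1.5 times). Only the median ratio had a direction that could turn, and it stayed higher after CPT in each setting. The number of desert sites, 12652, was 22336 over 50 kb, 5801 over 200 kb, 1731 when TSS of any gene type counted and 5108 with a score of at least 20 in every ATF3 list. The density, 10.80 per Mb, was 13.87, 7.64, 6.98 and 4.36 under the same settings, 11.03 without ATF3-KO removal, 11.22 without chromosome X, 9.28 with N bases counted and 11.81 with only the 5′ ends of genes as TSS. The median score, 16, was 15 over 200 kb and with every TSS, 33 with a score of at least 20, and 10.4 as a normalized tag count.

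The share with a basal peak, 34.8%, was 33.4% with every TSS, 35.9% without ATF3-KO removal, 26.0% with a score of at least 20 in both lists, 33.2% when 0.5 of the peak had to overlap, 37.8% for centres within 500 bp and 24.4% for ATF3-Ctrl scores of at least 12. The median ratio, 1.94, was 1.99 over 50 kb, 1.84 over 200 kb, 1.82 with every TSS, 1.85 without ATF3-KO removal, 1.87 with a score of at least 20, and 2.13 as a ratio of scores. The share with a p53 peak within 10 kb, 9.21%, was 10.3% without ATF3-KO removal, 9.96% with a score of at least 20, 1.04% for an overlap, 2.09% within 1 kb, 48.7% within 100 kb, 4.73% with p53-CPT peaks absent from p53-KO and 8.57% without sites near large runs of N. The core share, 49.8%, was 50.8% over 200 kb, 59.9% with a score of at least 20, 52.5% in 200 bp and 85.1% with 1 mismatch. The share inside a protein-coding gene, 30.7%, was 39.1% over 50 kb, 19.8% over 200 kb, 42.8% with every TSS and 42.2% with the 5′ ends of genes. The 5′ end and run of N settings were chosen after seeing the data. No paired analysis was possible because each condition was 1 library without a replicate number. Peaks with a score under 9 were not listed, so a missing basal peak does not show that ATF3 was absent.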
